A study of Arabidopsis thaliana with 27 samples.

Results

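Seedlings of Arabidopsis thaliana Col-0 that were germinated and grown on 250 mM sorbitol were compared with seedlings grown on the same medium without any addition. Sorbitol is a sugar alcohol that lowers the water potential of the medium without adding salt ions, and 250 mM was the highest sorbitol dose of the series, iso-osmolar to 125 mM NaCl. The 6 arrays compared here, 3 of sorbitol 250 mM and 3 of the untreated control, belong to a series of 27 arrays over 9 groups of 3, with sorbitol at 100, 150, 200 and 250 mM and NaCl at 50, 75, 100 and 125 mM. All groups were wild-type plants of 2 weeks grown in petri dishes on ATS agar, and RNA was taken from shoot and root together, so that each value is an average over all organs of the plant. Of 25383 genes matched to a probe, 21508 were tested, each with a signal well above background throughout the 3 arrays of some group. The study describes its array values as averages of 3 biological repeats. The labels do not say whether the 3 arrays of a group came from separate dishes. The p-values measure the spread between arrays within all 9 groups, fitted together, and part of it may be technical.

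Osmotic stress raises abscisic acid (ABA) in plants. The hormone is bound by receptors of the PYR/PYL family, which then hold back protein phosphatases of clade A and so free SnRK2 kinases to activate ABF and ABI5 transcription factors. Known targets are late embryogenesis abundant (LEA) proteins and dehydrins, which protect proteins and membranes as water is lost, and enzymes that make proline and galactinol, which serve as compatible solutes. The same plants can change water channels, wall-loosening proteins and growth hormones, and many stresses bring out anthocyanin pigments.

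Between 70.3% and 76% of probes were well above background on the control arrays, and between 75.6% and 76.5% on the sorbitol arrays. Arrays of the same group differed by a root mean square of 0.33 to 0.36 on the log2 scale in the control and of 0.26 to 0.29 in sorbitol 250 mM. The 3 sorbitol 250 mM arrays were on a slide of their own, and the control arrays were on 2 other slides, so slide and group cannot be told apart. The summed intensity of 22 light-harvesting and Rubisco small-subunit genes, taken as shoot markers, was 5370000 to 5390000 in the control and 5090000 to 5280000 in sorbitol 250 mM. That of 12 root markers was 175000 to 180000 and 199000 to 207000. The median log2 fold change of these 12 was -0.38, so the sum and the median went opposite ways. Every one of these marker genes was well above background in both groups. In tissue of mixed cells, fewer cells of a type and less RNA per cell cannot be told apart.

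On 250 mM sorbitol most genes differed from the control by small amounts, and a smaller group differed strongly. Of 21508 genes, 14350 (66.7%) passed an adjusted p of 0.01 in the limma fit, 7784 higher (36.2%) and 6566 lower (30.5%). Of those called, 9484 (66.1%) differed by less than 1.5-fold, and the median size of a called change was 0.42 on the log2 scale. At least 2-fold changes were called for 2521 genes (11.7%), 1202 higher (5.59%) and 1319 lower (6.13%). With normexp background correction, 1193 genes were at least 2-fold changed, 500 higher and 693 lower. That correction added an offset of 50 to each intensity, which shrinks the folds of dim genes. At least 4-fold, 450 genes were higher and 285 lower, and at least 16-fold 78 were higher and 29 lower. The median over all genes tested was 0.04. The 3 arrays of each group did not overlap for 17772 genes (82.6%), so absence of overlap by itself marks little here, and an exact permutation test of 3 arrays against 3 cannot give a p below 0.1.

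**Figure D1:**
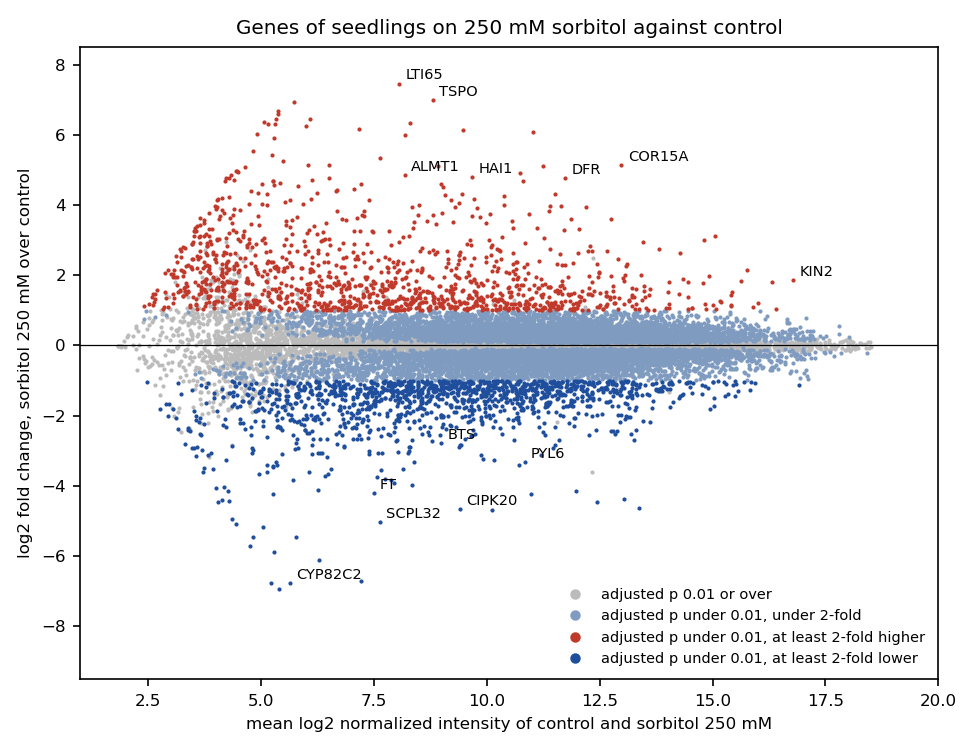
Each point is 1 of the 21508 genes tested, with the mean log2 normalized intensity of both groups on the x axis and the log2 fold change of sorbitol 250 mM over control on the y axis. Colours give the call. 2521 genes lie past 0.01 and at least 2-fold from the control, and the named genes are described in the text.

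Among genes measured on all 6 arrays, the 2 with the largest rises were AT1G80130, from 82.7, 81.3 and 87.9 to 5990, 6060 and 5820 (70.9-fold), and AT2G37870, from 248, 253 and 261 to 17100, 17000 and 17000 (67.1-fold), which carry no name in the annotation used. Of the named genes, COR15A, a chloroplast LEA protein known from cold and drought, stood at 1360, 1380 and 1360 on the control arrays and at 45900, 49100 and 49300 on sorbitol (35.2-fold, log2 5.14, SE 0.066, adjusted p = 2.16e-23). HIS1-3, a linker histone known to accumulate under drought, went from 413, 410 and 419 to 14200, 14200 and 14500 (34.6-fold, log2 5.11, SE 0.031). For both genes every sorbitol array was far above every control array, which the choice of the largest changes without overlap required. UF3GT, which adds a xylose to anthocyanins, had 309 to 316 in the control and 9280 to 9690 on sorbitol (30.1-fold). DFR, which commits flavonoids to anthocyanin, had 661, 634 and 655 against 17900, 17600 and 17800 (27.3-fold). HAI1, a clade A protein phosphatase, rose from 139, 146 and 181 to 4240, 4250 and 4400 (27.8-fold, log2 4.80, SE 0.088). The malate channel ALMT1, which releases malate from roots, was low in the control at 44.5, 58.2 and 61.6 and reached 1510, 1620 and 1590 (29-fold, log2 4.86, SE 0.092). The 3 arrays of each group stood apart for these genes, again as their choice required. The rest of the 10 largest rises were the unnamed AT3G03341 (34.7-fold) and AT3G28270 (25.5-fold). The control values of ALMT1, AT3G03341 and HAI1 scattered most among these 10, with SDs of 0.25, 0.22 and 0.20 on the log2 scale.

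The 10 largest falls included a kinase, a peptidase-like gene and a floral regulator. The serine carboxypeptidase-like gene SCPL32 fell from 1130, 1160 and 1120 to 41.9, 34.2 and 29.4 (32.7-fold lower, log2 -5.03, SE 0.1, adjusted p = 2.92e-20). CIPK20, a kinase bound by calcineurin B-like calcium sensors, fell from 3280, 3520 and 3440 to 131, 133 and 139 (25.4-fold lower). MEE3, a small MYB-related factor, stood at 4860, 5950 and 6100 in the control and at 213, 223 and 222 on sorbitol (25.6-fold lower). Control replicate 1 of MEE3 was the lowest of its group. FT, the mobile signal that induces flowering, fell from 790, 780 and 751 to 45.7, 41 and 39.7 (18.4-fold lower, log2 -4.20, SE 0.134). The remaining 6 of the 10 largest falls were AT5G33355, AT1G26250, AT3G59930, AT3G29410, AT2G41810 and AT3G60270, which are unnamed in the annotation used and were 15.5-fold to 25-fold lower. AT5G33355 was among the bright genes of the control at 54100, 53200 and 52900 and had 2190, 2110 and 2120 on sorbitol.

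**Figure D2:**
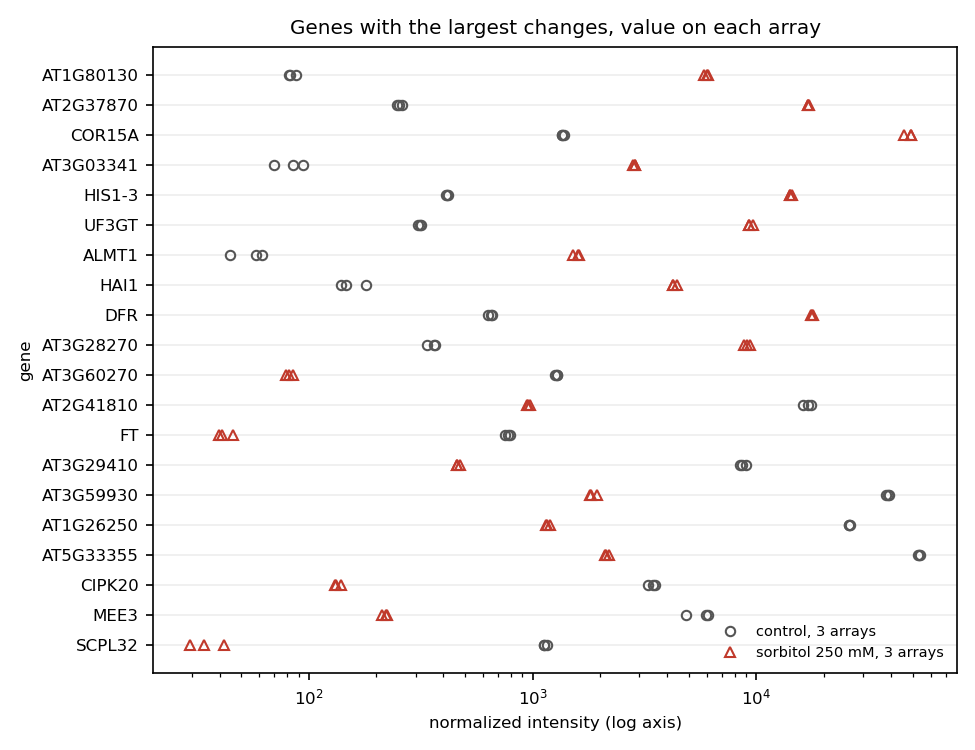
Normalized intensity on a log axis of the 10 genes that rose most and the 10 that fell most among genes well above background on all 6 arrays; circles are the 3 control arrays and triangles the 3 sorbitol 250 mM arrays. COR15A rose 35.2-fold and SCPL32 fell 32.7-fold. The 20 genes were chosen for large changes without overlap of arrays, so the gap between groups is fixed by the choice.

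Some genes had no measurable level in 1 of the groups. There were 340 genes dim on every control array, that is not well above background, and well above it on all sorbitol arrays, and 294 of them were called higher. For such genes the fold is a lower bound, the bright group's mean over the dim group's mean with each dim array at no less than the lowest signal that counted as above background. LTI65 (also known as RD29B), a classic ABA-responsive stress protein, had 18.1, 21.3 and 21.2 in the control and 3520, 3500 and 3620 on sorbitol, at least 118-fold higher (adjusted p = 1.14e-23). The next highest bounds were at least 40.1-fold for AT3G17520, 20.9-fold for AT3G27250, 19.4-fold for NATA1, an acetyltransferase acting on ornithine, and 18.5-fold for the heat shock factor HSFA6A. The control arrays of HSFA6A were uneven, at 3.72, 27.7 and 3.79. In the other direction, 61 genes lost a measurable level and 60 of them were called lower. The direction of these calls was fixed by the choice of genes. The lowest signal that counted as above background was 19, 47 and 30.7 on the control arrays. It was 20.8, 19.8 and 18.6 on the sorbitol arrays. This floor was higher on control replicates 2 and 3, so 340 and 61 do not measure how many genes were gained and lost. The cytochrome P450 gene CYP82C2 went from 516, 522 and 536 to 4.83, 4.81 and 4.73, at least 26.6-fold lower. The unnamed AT3G05950 had 1470, 1540 and 1510 in the control and 14.3 to 14.5 on sorbitol, at least 76.5-fold lower, and AT2G36255, AT4G19430 and AT5G50140 had bounds of 23.8-fold, 19.8-fold and 18.4-fold.

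The counts for gene lists that follow stand against 36.2% called higher and 30.5% called lower over all genes tested. Of 14 genes of ABA synthesis and breakdown, 5 were called higher and 4 lower, close to these shares, with a median of -0.06 against 0.04 over all genes. NCED enzymes make the committed cut of ABA synthesis. NCED3, the member best known from drought, was near the floor with 75.7, 21 and 43.9 in the control and 40.8, 32.1 and 4.77 on sorbitol, and its groups overlapped (adjusted p = 0.175). NCED2 had 8.25, 4.58 and 11.5 against 46.8, 50.1 and 43, at least 1.54-fold higher. NCED5 fell from 22, 34.3 and 24.2 to 3.72, 3.75 and 3.78, with only 1 of the 3 control arrays well above background. AAO3, which oxidises abscisic aldehyde to ABA, rose 1.48-fold from 5440, 6550 and 6450 to 8840, 9250 and 9120. BGLU18, a glucosidase that frees ABA from its glucose ester, rose 2.1-fold from 16300 to 16800 in the control to 34100 to 35900.

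None of the 8′-hydroxylases that break ABA down was called higher. CYP707A2 went from 101, 100 and 102 to 20.8 and 19.2 on sorbitol replicates 1 and 3 and slightly less on replicate 2, and lost its measurable level, at least 5.07-fold lower (adjusted p = 1.75e-14). CYP707A3 fell 2.33-fold, from 1810, 1880 and 1840 to 805, 796 and 766 (log2 -1.22, SE 0.046). CYP707A1 had 87.9, 75.2 and 91.2 against 89.4, 88.5 and 91.9, and its groups overlapped (adjusted p = 0.167). CYP707A4 had 131, 139 and 137 against 349, 375 and 340, apart on every array but not past 0.01 in the fit over all groups (log2 1.39, SE 0.888, adjusted p = 0.164). The arrays of both groups were also apart for CYP707A2 and CYP707A3, as they were for 82.6% of all genes tested.

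Most measured ABA receptors fell, and most clade A phosphatases rose. Of 14 receptor genes, 10 were measured. Of these, none was called higher and 8 were called lower, 5 of them at least 2-fold, where 30.5% and 6.13% of all genes were lower by these rules. The list median was -0.92. PYL6 fell 10.1-fold, from 5980, 5750 and 5720 to 576, 578 and 575 (log2 -3.33, SE 0.031, adjusted p = 1.37e-25). PYL5 fell 2.38-fold, PYL2 2.34-fold and PYR1 2.09-fold, the last from 31600, 32400 and 32400 to 15300, 15500 and 15200. No receptor of these 4 had overlapping arrays, which held for 82.6% of all genes tested. Of 9 phosphatase genes, 7 were called higher and none lower, with 4 at least 2-fold, where 36.2% of all genes were higher and 5.59% at least 2-fold higher. Their median was 0.47, and it was 0.75 without control replicate 1 and 0.99 without control replicate 3. Besides HAI1, ABI2 rose 2.33-fold from 1090, 1120 and 1080 to 2580, 2590 and 2490. ABI1 rose 1.31-fold from a much brighter signal of 16600 to 17700. HAI2 and HAI3 were dim on every control array and were at least 6.35-fold and 2.7-fold higher.

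Of 12 ABA kinases and transcription factors, 8 were called higher and 2 lower, with a median of 0.70. OST1, the SnRK2 kinase of guard cells, rose 1.65-fold. ABI5, a bZIP factor of seed and seedling ABA response, rose 3.89-fold from 362, 379 and 388 to 1380, 1510 and 1510. Its relatives ABF2, ABF3 and ABF4 rose 1.58-fold, 1.72-fold and 1.6-fold. HB-7, a homeodomain factor induced by ABA and water loss, rose 4.19-fold from 2730, 2830 and 2840 to 11700, 11600 and 11800 (log2 2.07, SE 0.026). RD26, a NAC factor of the drought response, instead fell 1.38-fold from 12700, 12200 and 13000 to 9140, 9030 and 9180. ABI3 was called higher, but its probes disagreed in sign and no level is drawn from it.

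Most members of the list of LEA proteins, dehydrins and cold-regulated proteins were called higher. The list was chosen with earlier results of these data known, so its counts add no independent support. TSPO and LTP4, given below, are not proteins of these kinds. Of 19 genes, 17 were called higher and 1 lower, and 13 (68.4%) were at least 2-fold changed where 11.7% of all genes were. The list median was 1.98. TSPO, a membrane protein induced by ABA, stood at 38.8, 36 and 44.6 in the control, where 2 of 3 arrays were well above background. On sorbitol TSPO stood at 4970, 5030 and 4990 (126-fold, log2 6.98, SE 0.055). The lipid transfer protein LTP4 had 53.6, 34 and 26.9 in the control, with 1 array well above background, and 2350, 2290 and 2340 on sorbitol. LTI78 (also known as RD29A) rose 6.18-fold from 7940 to 8040 in the control to 47500 to 51500. KIN2 was the brightest of those named here and rose 3.62-fold, from 57400, 58700 and 61200 to 203000, 220000 and 220000. The exception was the dehydrin ERD14, which fell 1.83-fold from 24600, 23100 and 25800 to 13300, 13400 and 13400.

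The CBF and DREB factors, which drive many of these genes in cold and dehydration, were mostly not called higher. Of 10 tested, 1 was called higher and 5 lower, where 30.5% of all genes were lower. Their median was -0.23, and -0.53 with 75th percentile scaling or with the filter on dim probes set on the 2 groups alone. CBF2 fell 2.86-fold from 65.3, 71.1 and 67.4 to 27, 20.8 and 23.8. DREB2C fell 2.11-fold and DREB1A 1.79-fold. DREB2A, the best-known dehydration member, fell 1.5-fold from 4940, 4930 and 4890 to 3190, 3360 and 3300.

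**Figure D3:**
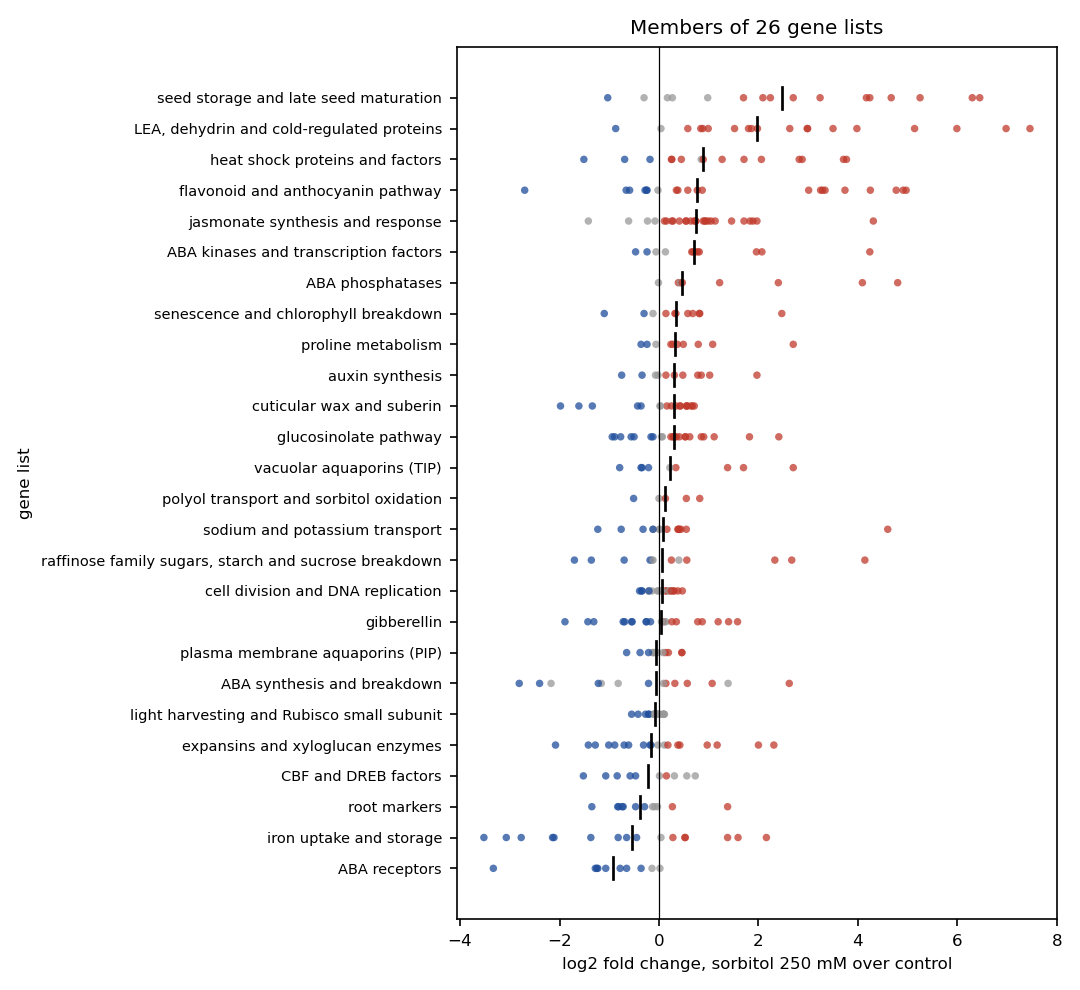
Log2 fold change of sorbitol 250 mM over control for the tested members of 26 gene lists, one point a gene, red for called higher, blue for called lower and grey for not called; the black bar is the list median. Medians run from -0.92 for the ABA receptors to 1.98 for LEA, dehydrin and cold-regulated proteins and 2.47 for seed genes, of which 13 were dim on every control array and whose median ranged from 0.42 to 3.70 over the alternatives. Genes dim on the control were tested only if measured in another group, so the direction of the seed median is largely fixed.

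P5CS1, which controls proline synthesis, rose 6.52-fold from 2530, 2650 and 2490 to 16900, 16400 and 16600 (log2 2.70, SE 0.042, adjusted p = 4.26e-22). ALDH12A1, which completes proline breakdown, also rose, 2.12-fold from 11200, 11700 and 11600 to 23500, 25300 and 24300, although this call was lost with the mean of all its probes (log2 0.83, adjusted p = 0.0446). ERD5, the proline dehydrogenase that opens breakdown, fell 1.18-fold from 49600, 52400 and 50300 to 43100, 43000 and 42600. Of the 10 proline genes, 7 were called higher and 2 lower, with a median of 0.33. Galactinol synthases feed the raffinose sugars. GolS2 rose by 4.14 on the log2 scale from 133, 145 and 143 to 2460, 2470 and 2480, and GolS4 rose 6.37-fold from 149 to 182 to 1010 to 1100. The sucrose synthases SUS3 and SUS4 parted, SUS3 rising 5.03-fold from 828 to 871 to 4190 to 4300 and SUS4 falling 3.25-fold from 6520 to 6780 to 2050 to 2060. STS, a stachyose and raffinose synthase, fell 2.58-fold. Among 12 genes of raffinose sugars, starch and sucrose breakdown, 5 were called higher and 4 lower. Of 5 genes for polyol transport and sorbitol oxidation, 3 were called higher and 1 lower, none at least 2-fold. The polyol transporters PMT5 and PMT6 rose 1.76-fold and 1.47-fold, PMT5 from 25300 to 25900 to 43500 to 48100.

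Of 21 genes of the flavonoid and anthocyanin pathway, 14 were called higher and 6 lower, 9 and 1 of them at least 2-fold, where 36.2% and 30.5% of all genes were called and 5.59% and 6.13% at least 2-fold. The median was 0.77. TT4, the chalcone synthase that opens the pathway, had 56300, 56100 and 54500 in the control and 46300, 47100 and 48000 on sorbitol (1.18-fold lower, adjusted p = 2.28e-07). F3H and the flavonol synthase FLS1 fell 1.22-fold and 1.19-fold. TT7, the flavonoid 3′-hydroxylase, instead rose 1.28-fold, and the chalcone isomerase TT5 was not called (adjusted p = 0.625). Besides DFR, the anthocyanidin synthase LDOX rose 19-fold from 326, 295 and 293 to 5520, 5680 and 6150. AT5MAT, which adds malonate to anthocyanin, rose 13.4-fold from 521 to 552 to 7080 to 7280, and GSTF12, needed to carry anthocyanin to the vacuole, rose 9.8-fold from 1040, 1080 and 1070 to 10400, 10500 and 10400. Their regulators moved too. The MYB activator PAP1 rose 8.03-fold from 370, 376 and 378 to 3000, 3080 and 2950, and its bHLH partner TT8 rose 9.52-fold from 73.4, 78.8 and 68.4 to 706, 690 and 701. MYB90, a close relative of PAP1, was dim on every control array and was at least 4.06-fold higher. MYBL2, a repressor of the same genes, fell 6.51-fold from 8050, 7920 and 7750 to 1240, 1170 and 1240 (log2 -2.70, SE 0.056). The arrays of both groups stood apart for each of these regulators, as they did for 82.6% of all genes tested.

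Of 16 iron genes, 6 were called higher and 9 lower, where 36.2% and 30.5% of all genes were, with 3 and 6 at least 2-fold. Their median was -0.55, and -0.33 with normexp background correction. Among regulators of the iron deficiency response, the bHLH factors bHLH38, bHLH39, BHLH100 and BHLH101 fell 8.39-fold, 4.41-fold, 4.32-fold and 2.59-fold. For bHLH38 the values were 524, 572 and 567 in the control and 66.8, 66.9 and 64.4 on sorbitol. BTS, a ubiquitin ligase that restrains this response, fell 6.82-fold from 1360, 1330 and 1300 to 202, 189 and 195 (log2 -2.77, SE 0.049, adjusted p = 4.29e-21). MYB72, a root factor of iron uptake, lost its measurable level and was at least 2.63-fold lower. NAS4, which makes the metal chelator nicotianamine, fell 1.77-fold, and the phloem transporter OPT3 fell 1.57-fold. The ferritin gene FER1, whose protein stores iron in plastids, rose 4.48-fold from 25600, 26600 and 26900 to 120000, 116000 and 118000, FER3 rose 2.61-fold and FER4 1.22-fold. The root iron transporter IRT1 rose 3.01-fold from 298, 328 and 314 to 893, 950 and 985, the ferric reductase FRO2 rose 1.45-fold, and FRU (also known as FIT), the bHLH factor that drives both, rose 1.44-fold. bHLH38 and bHLH39 are close copies, and whether their probes tell them apart was not tested.

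Of 13 PIP genes, water channels of the plasma membrane, 4 were called higher and 3 lower, where 36.2% and 30.5% of all genes were, and none was at least 2-fold changed, where 11.7% of all genes were. The median of -0.06 turned to 0.03 with the mean of all probes. Among 9 vacuolar TIP genes, 4 were called higher and 4 lower. TIP2;3, a root aquaporin, rose 2.6-fold from 4620, 4420 and 4400 to 11800, 11700 and 11300 (log2 1.38, SE 0.041). DELTA-TIP, the brightest of those named here, fell 1.72-fold from 203000, 135000 and 193000 to 102000, 102000 and 99600. Of 14 sodium and potassium transport genes, 7 were called higher and 4 lower. The high-affinity potassium transporter HAK5 rose 24.2-fold from 108, 99.2 and 105 to 2530, 2460 and 2550 (log2 4.60, SE 0.046, adjusted p = 4.33e-25). HKT1, which retrieves sodium from the xylem, fell 2.34-fold from 717, 711 and 666 to 289, 307 and 300. SOS1, the plasma membrane sodium exporter, rose 1.36-fold from 1440 to 1510 to 1970 to 2040, and the vacuolar exchanger NHX3 rose 1.31-fold. The reference gene AT2G28390, named SAND in the study, rose 1.21-fold from 5150, 5270 and 5350 to 6160, 6590 and 6390.

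Of 19 expansins and xyloglucan enzymes, which loosen the wall, 7 were called higher and 10 lower, where 36.2% and 30.5% of all genes were, with a median of -0.16. EXPA15 rose 4.96-fold from 3920 to 4050 to 19500 to 20000, EXPA1 rose 4-fold and EXPA10 rose 2.25-fold. XTH24, an enzyme that cuts and joins xyloglucan, fell 4.22-fold from 17600, 18000 and 17500 to 4270, 4170 and 4140. XTH15 fell 2.67-fold, EXPA11 2.42-fold and EXPA5 2.01-fold. Of 21 gibberellin genes, 8 were called higher and 10 lower, where 36.2% and 30.5% of all genes were, with a median of 0.05 that turned to -0.06 with the filter on dim probes set on the 2 groups alone and to -0.01 with the mean of all probes. GA3OX2, which makes the active hormone, fell 3.7-fold from 1930, 1980 and 1830 to 524, 514 and 514. GA20OX2, which acts a step earlier, rose 2.63-fold. The gibberellin-responsive GASA1 fell 2.47-fold from 84100, 62700 and 84100 to 30400, 31100 and 31100, and ATGA2OX1, which inactivates gibberellin, fell 2.69-fold. Of 20 genes of cell division and DNA replication, 8 were called higher and 4 lower, against the same shares over all genes, and none was at least 2-fold changed, with log2 fold changes from -0.39 to 0.47.

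Of 18 genes for cuticular wax and suberin, 11 were called higher and 5 lower. The wax genes KCS6, an elongase, and MYB96, its ABA-induced regulator, rose 1.47-fold and 1.64-fold. RWP1, which adds ferulate to suberin, fell 3.96-fold from 11400, 11100 and 10900 to 2850, 2790 and 2790, and MYB41, a suberin regulator, fell 2.54-fold. Of 11 senescence genes, 8 were called higher and 2 lower, where 36.2% and 30.5% of all genes were, and 1 each way was at least 2-fold changed, with a median of 0.34. SAG13 rose from 60.4, 54.1 and 67, with 2 control arrays well above background, to 319, 352 and 332. SEN1 fell 2.14-fold from 15000, 14800 and 14500 to 6810, 6990 and 6850. Among the root markers, 7 of 12 were called lower and 2 higher, although their summed level was higher. Those lower included CASP5, a protein of the root endodermal barrier, at 463, 448 and 427 against 174, 176 and 176 (2.54-fold lower). Of the 22 shoot markers 5 were called lower and none higher. Their median was -0.07, and -0.40 when arrays were scaled to their 75th percentile in place of quantile normalization.

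Of 27 jasmonate genes, 23 were called higher and none lower, 8 of them at least 2-fold, where 36.2% of all genes were higher and 5.59% at least 2-fold higher. The median was 0.74. LOX2, a plastid lipoxygenase that starts jasmonate synthesis, rose 3.56-fold from 26400, 26700 and 27100 to 94000, 98100 and 93600. The cyclase AOC1 rose 3.92-fold from 3280, 3580 and 3540 to 13300, 13300 and 14100, and the reductase OPR3 rose 1.99-fold. Of the responsive genes, TAT3, a tyrosine aminotransferase, rose 19.9-fold from 160, 153 and 160 to 2810, 3320 and 3280. The vegetative storage protein VSP1 rose 3.71-fold and the repressor JAZ5 rose 3.28-fold, the latter from 74.4, 83.9 and 83.6 to 279, 251 and 263. The defensin PDF1.2 had 1790, 1760 and 1660 against 674, 633 and 640, apart on every array, but did not pass in the fit over all 27 arrays (log2 -1.42, SE 0.567, adjusted p = 0.0296).

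Glucosinolates are sulphur-rich defence compounds of this family of plants. Of 23 genes in their pathway, 14 were called higher and 7 lower, with 3 and 0 at least 2-fold. The regulator MYB76 rose 5.33-fold from 109, 115 and 116 to 614, 597 and 596, and CYP79F1, which converts chain-elongated methionine, rose 3.54-fold from 8650 to 9110 to 31600 to 31700. MAM1, which elongates the chain, rose 2.15-fold. CYP79F2, a near copy of CYP79F1 whose probe was not checked for cross-reaction, fell 1.91-fold from 2030, 2100 and 2110 to 1080, 1090 and 1090, and the myrosinase TGG2 fell 1.85-fold. Of 11 auxin synthesis genes, 7 were called higher and 2 lower, with a median of 0.31. YUC4, a flavin monooxygenase that makes auxin from indole-3-pyruvate, rose 3.92-fold from 37.1, 39.2 and 42.3 to 151, 158 and 155. TAA1, which acts before it, rose 1.72-fold. Nitrilases can make auxin from indole-3-acetonitrile. NIT2 rose 2.03-fold from 1320, 1360 and 1250 to 2650, 2640 and 2690, NIT3 fell 1.68-fold, and NIT1 had 26000, 25900 and 25000 against 24900, 24200 and 24100 and was not called (adjusted p = 0.0767), though it was called lower with the mean of its probes (log2 -0.16, adjusted p = 0.00127). The aldehyde oxidase AO1 overlapped between groups (adjusted p = 0.727). For the amidase AMI1, at 16300 to 16700 against 17900 to 18400, the probes disagreed and the call was lost or its sign turned in several alternatives.

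Of 15 heat shock proteins and factors, 11 were called higher and 3 lower, where 36.2% and 30.5% of all genes were. The median of 0.89 was 0.27 with normexp background correction, 1.27 without control replicate 2 and 1.28 without control replicate 3. AT2G29500, a small heat shock protein, which holds unfolded proteins, rose 4.18-fold from 988, 926 and 928 to 3990, 3960 and 3930. HSP17.4 was not well above background in the control and had 41.1, 44.9 and 83.6 on sorbitol, at least 1.78-fold higher, with replicate 3 well above the other two. The factor HSFA2 rose 1.85-fold from 401, 500 and 556 to 862 to 913. HSFA3 and HSFA7A fell 2.84-fold and 1.61-fold, HSFA3 from 2570 to 2670 to 906 to 942.

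Some genes of late seed maturation were expressed at a low level. Of 16 such genes, 13 were dim on every control array, and 11 were called higher and 1 lower. A gene was tested only if measured in some group, so genes dim on the control could hardly be called lower. The direction of these calls is therefore largely fixed by the filter. The summed intensity of the 16 was 508 to 532 in the control and 2320 to 2360 on sorbitol. PER1, a peroxiredoxin of seeds, had 4.01, 4.1 and 3.96 in the control and 301, 326 and 328 on sorbitol, at least 10.5-fold higher, and the LEA protein ECP63 was at least 12.4-fold higher. The storage globulin CRA1 had 10.9, 4.52 and 9.27 against 187, 206 and 196, at least 6.49-fold higher. CRU3, another storage globulin, was not well above background in either group. The oleosin OLEO2 was at least 2.32-fold higher, whereas OLEO4 fell 2.04-fold from 323 to 344 to 157 to 167. GEA6 (also known as EM6) rose from 55, 61.6 and 58.6 to 567, 554 and 528. EM1 was called higher, but its probes disagreed in sign.

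The highest dose was next set against sorbitol 200 mM, the next lower dose. The arrays of these doses were on different slides, so slide and dose cannot be told apart. Of 21508 genes, 10309 (47.9%) passed 0.01, 5811 higher and 4498 lower, with 271 and 733 of them at least 2-fold. By root mean square the doses were 0.49 apart on the log2 scale, and sorbitol 250 mM was 0.81 from the control. This count fell to 6735 with slide as a random block and to 6519 in a fit to the arrays compared alone. LTI65 was 1.27 higher on the log2 scale at 250 mM (3500 to 3620 against 1420 to 1530 at 200 mM, adjusted p = 2.34e-10), TSPO 1.11 higher, GolS2 1.22 higher and UF3GT 1.22 higher. ALMT1 was 1.92 higher and TAT3 2.71 higher, TAT3 with 2810, 3320 and 3280 against 439, 492 and 507. The test did not separate the doses for HAI1, at 3570, 3910 and 3880 on 200 mM (log2 0.18, SE 0.088, adjusted p = 0.0814), or for KIN2 (log2 -0.02, SE 0.047, adjusted p = 0.716).

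Several genes went the other way over the last step. CYP707A2 had 212, 215 and 211 at 200 mM and was at least 10.7-fold lower at 250 mM. BTS had 963, 1040 and 1070 at 200 mM and was lower at 250 mM (log2 difference -2.39, adjusted p = 1.7e-19). The unnamed gene AT3G56480 had 1420, 1450 and 1490 against 108, 117 and 94.7 (log2 -3.77). The means at sorbitol 150 mM were 40 for CYP707A2, 391 for BTS and 294 for AT3G56480. For these genes 200 mM thus stood above both neighbouring doses. In contrast, IRT1 was 2.00 higher at 250 mM, with 208, 245 and 258 at 200 mM and a mean of 557 at 150 mM. The storage globulin CRU3 had 1090, 1160 and 1160 at 200 mM and was at least 57.6-fold lower at 250 mM. CRA1 had 1480, 1590 and 1590 at 200 mM (log2 -2.99, adjusted p = 1.81e-08). At sorbitol 150 mM the means were 4.31 for CRU3 and 34.5 for CRA1, so 200 mM stood above both neighbouring doses. The summed intensity of the 16 seed genes at 200 mM, 4430 to 4740, was above that at 250 mM and above that at 150 mM, 765 to 889. For AOX1B, AT5G44360 and AT3G21900, replicate 1 of sorbitol 200 mM was far above the other two (92.8, 5.27 and 3.94 for AOX1B, 442, 26.5 and 16.2 for AT5G44360 and 119, 5.7 and 4.79 for AT3G21900). Only 1, 2 and 1 of these 3 arrays were well above background, and no fold is drawn for these genes.

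**Figure D4:**
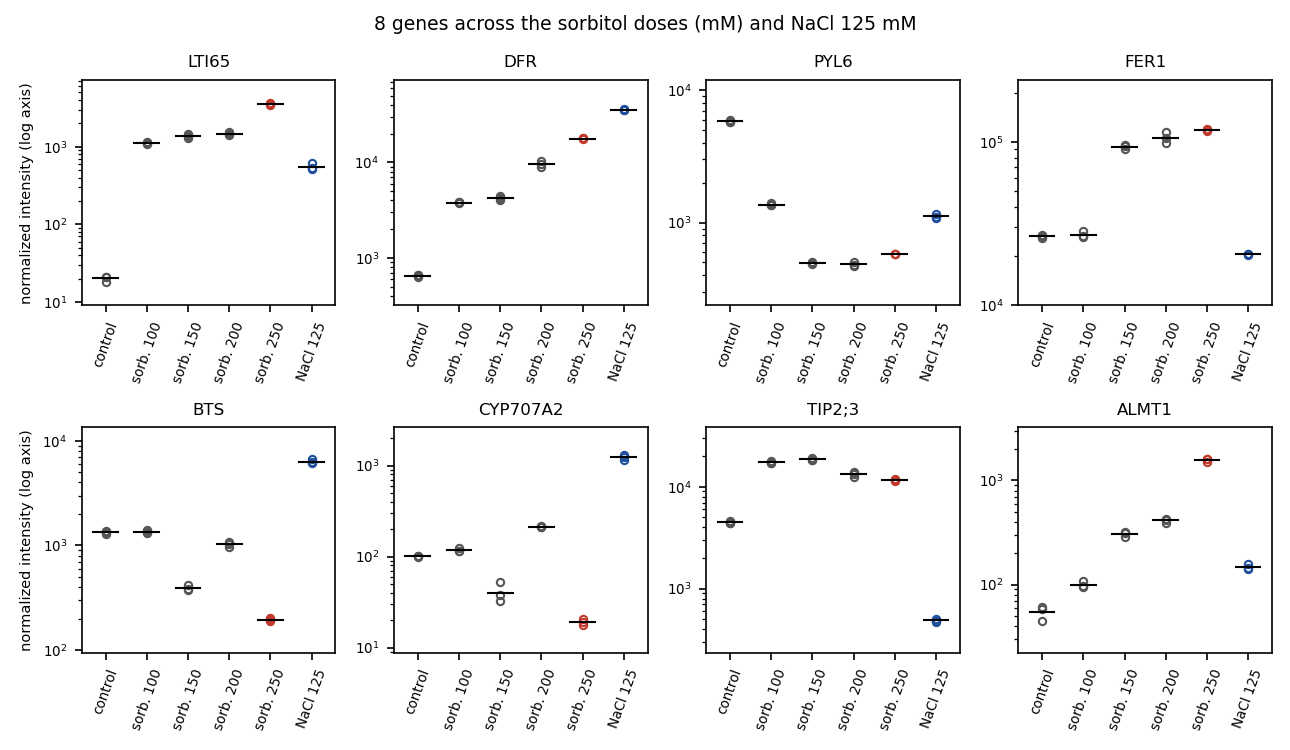
Normalized intensity on a log axis of 8 genes on the 3 arrays of the control, each sorbitol dose and NaCl 125 mM; the bar is the geometric mean. LTI65 and ALMT1 are higher at 250 mM than at the lower sorbitol doses, BTS and CYP707A2 are lowest at 250 mM, and TIP2;3 is lowest at NaCl 125 mM.

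The comparison with NaCl 125 mM held the osmolarity and changed the solute. The NaCl 125 mM arrays were also on other slides, so slide and solute cannot be told apart. Of 21508 genes, 14662 (68.2%) passed 0.01, 8912 higher on sorbitol and 5750 lower, with 1068 and 1359 at least 2-fold. The corresponding distance was 0.79. Iron genes were among those furthest apart. Of 16, 12 were lower on sorbitol than on NaCl and 3 higher, where 26.7% and 41.4% of all genes were. On NaCl 125 mM, BTS had 6200, 6090 and 6730, and the sorbitol value was lower by a log2 difference of -5.02 (adjusted p = 1.91e-25). BHLH100 had 2500, 2640 and 2500 on NaCl and 71.4 to 74.3 on sorbitol (log2 -5.12). FER1 had 20500, 20100 and 20500 on NaCl and was 2.53 higher on sorbitol. CYP707A2 reached 1320, 1250 and 1140 on NaCl and was at least 62-fold lower on sorbitol, and CYP707A1, at 613 to 639 on NaCl, was lower by a log2 difference of -2.80. NCED3 was at 123, 139 and 129 on NaCl (log2 -2.82, adjusted p = 0.00226).

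Root and division genes were higher on sorbitol than on NaCl. Of 12 root markers 11 were higher and none lower, and of 20 division and replication genes 17 were higher and 2 lower, where 41.4% of all genes were higher and 26.7% lower. TIP2;3 had 483, 470 and 509 on NaCl and was 4.58 higher on sorbitol (adjusted p = 6.73e-26). CASP5 was 2.14 higher and SEN1, at 663, 664 and 679 on NaCl, was 3.36 higher. Several genes were measurable on sorbitol and dim on all NaCl arrays. EXPA2 had 5.6, 6.43 and 3.88 on NaCl against 395, 424 and 400, at least 29.1-fold higher on sorbitol, and PCR1, a small protein known for cadmium resistance, was at least 99.2-fold higher. ERD5 had 9370, 9360 and 8540 on NaCl and was 2.24 higher on sorbitol. Jasmonate genes were lower on sorbitol for 17 of 27 members and higher for 5, where 26.7% and 41.4% of all genes were, with VSP1 at 106000, 114000 and 120000 on NaCl. Expansins and xyloglucan enzymes were lower for 13 of 19, among them EXPA11 (log2 -3.65) and EXPA5 (log2 -2.79). NIT2 stood at 10700, 10300 and 10500 on NaCl and NIT1 at 63500, 60700 and 62200, lower on sorbitol by log2 differences of -1.98 and -1.35; both are close copies, and whether their probes tell them apart was not tested. HIS1-3, HAI1 and LTI65 were 2.98, 1.96 and 2.69 higher on sorbitol on the log2 scale, DFR was lower by a log2 difference of -1.01, and SUS3 was not separated (adjusted p = 0.913).

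**Figure D5:**
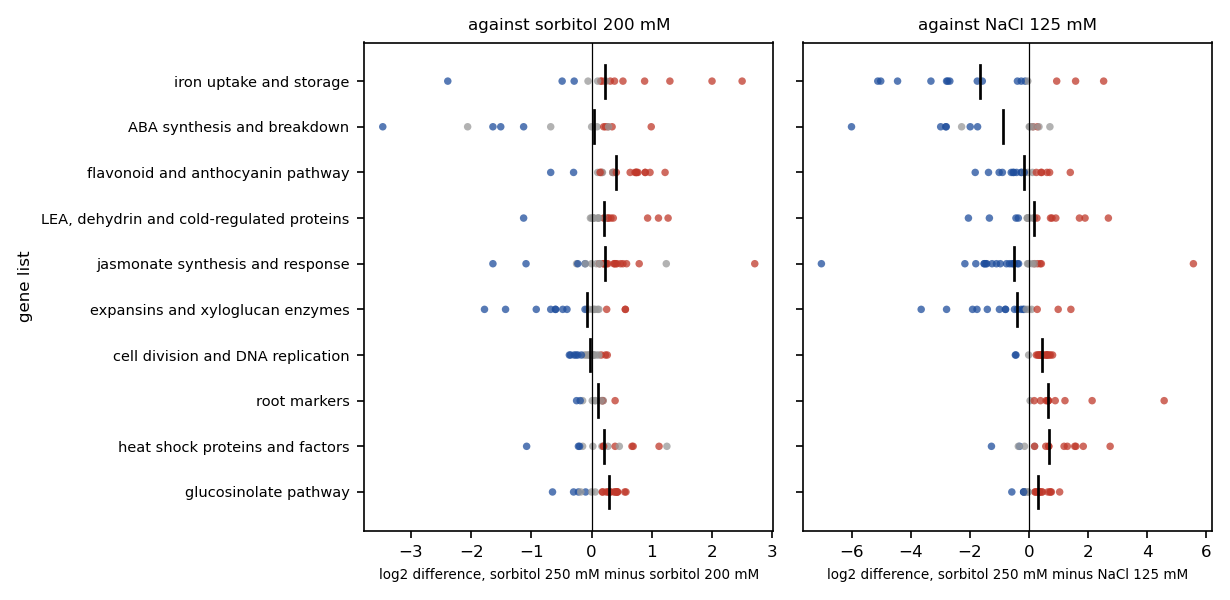
Log2 difference of sorbitol 250 mM from sorbitol 200 mM on the left and from NaCl 125 mM on the right, one point a gene in 10 of the lists, coloured red for called higher in sorbitol 250 mM, blue for called lower and grey for not called, with the list median as a black bar. The medians against NaCl 125 mM are -1.67 for iron genes and 0.65 for root markers.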

How the data were processed

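Single-colour Agilent arrays were hybridised with RNA of whole seedlings, 3 arrays for each of 9 groups. The deposited scanner files give a background-subtracted intensity per spot, made by the authors with Agilent Feature Extraction 10.7, and flags of other values (0 or 1) for spots above background and outlier spots. The authors' table of quantile-normalized intensity, on a linear scale, equalled the values computed here within 0.1 percent and changed no count. Intensities were quantile normalized over 27 arrays, outlier spots (0.0448% of values) were masked, and spots were named through transcript accessions in RefSeq; the probe with the highest mean stood for a gene (6645 genes had more than 1). Genes dim in every group were left out. limma 3.58.1 (R 4.3.3) fitted 9 group means with eBayes, and p-values were adjusted by the Benjamini-Hochberg method within each comparison, with calls under 0.01. The fit was tested on simulated data whose arrays had independent noise and no slide effect, so that test says nothing about slide. The authors' rank test set the control against all sorbitol doses pooled, or all NaCl doses pooled. For a single dose, with 3 arrays a group, a rank test cannot pass this threshold. Precision is limited by the 3 arrays of a group. Named genes were the 10 largest rises and falls, the 5 largest bounds each way, up to 3 members of a list each way with genes that define a pathway step, the 5 largest differences each way from sorbitol 200 mM and NaCl 125 mM (of which some without a gene name or measured on neither side are left out), and genes the study names. Members and lists were chosen with earlier results of these data known. Alternatives covered scaling, background, filter, probes, samples, slide, replicate block, threshold and leaving out each array. Promoter motifs were not analysed here.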

Additional observations from a re-analysis of the deposited data

Results flagged for a closer look

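The genes chosen for the text, not all genes tested, were searched again for opposite directions on sorbitol 250 mM and NaCl 125 mM. The list is therefore not the full set of such genes, and some were chosen for a large difference from NaCl 125 mM. Both changes from the control had to be called and at least 2-fold. The difference of sorbitol 250 mM from NaCl 125 mM, given for each gene, also had to be called. The choice of genes fixed the direction of this difference and a size of at least 4-fold, so the values are given as a description and add no independent support. Lower on sorbitol were bHLH38 (log2 -4.45), bHLH39 (-3.32), BHLH100 (-5.12), BHLH101 (-2.79) and BTS (-5.02) of the iron response, the expansins EXPA11 (-3.65) and EXPA5 (-2.79), the aldo-keto reductase ChlAKR (-5.61) and the unnamed AT3G56480 (-5.19). The ABA hydroxylase CYP707A2 was at least 62-fold lower than on NaCl 125 mM and at least 10.7-fold lower than on sorbitol 200 mM. On sorbitol 200 mM it had also gone the opposite way from the control. On sorbitol 150 mM it was below the control (log2 -1.34), so 200 mM departed from both neighbouring doses. Higher on sorbitol were TIP2;3 (4.58) and PCC1 (5.93), and, against arrays where they were not well above background, AT4G01390 (at least 170-fold), PCR1 (at least 99.2-fold) and AT3G12910 (at least 30.9-fold). The cause was not tested.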

How the results depend on the processing

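Across 16 alternatives and 166 genes followed, 2640 values kept their direction and their side of 0.01. Of the rest, 2 turned in sign, 5 lost their call and 6 gained one. The size of a change was not compared. Many of these genes were chosen for large changes, the deposited values repeat the main ones, and the threshold of 0.05 cannot lose a call, so few values could move. CRU3, dim in both groups, turned to 0.01 with normexp background correction and passed at -0.44 without control replicate 1, and AMI1 turned to -0.07 with the mean of all probes and was otherwise lost with 75th percentile scaling (0.12), with slide as a random block (0.14) and without control replicate 2 or sorbitol 250 mM replicate 2 (0.13). PDF1.2 passed with normexp (-1.18) and in a fit to the arrays compared (-1.42). The count of genes at least 2-fold changed went from 2521 to 1193 with normexp (500 higher, 693 lower), whose offset of 50 shrinks the folds of dim genes. Against sorbitol 200 mM, the count went from 10309 to 6519 in a fit to the arrays compared and to 6735 with slide as a random block, whose correlation was 0.516; that block left 11894 genes against the control. With the replicate block, counts were 14683 and 2534 against the control, 10752 against sorbitol 200 mM and 14953 against NaCl 125 mM; deviations of same-numbered arrays correlated between -0.04 and 0.09, so the numbers do not pair arrays. Leaving out single arrays gave 13455 to 13610 and 2462 to 2528 genes against the control, 8935 to 10944 against sorbitol 200 mM and 13864 to 14017 against NaCl 125 mM. Of list medians, that of the vacuolar aquaporins (0.22) turned to -0.14 without sorbitol 250 mM replicate 2, that of ABA synthesis and breakdown (-0.06) to 0.12 with the filter on dim probes set on the 2 groups alone and to 0.01 without sorbitol 250 mM replicate 1, that of PIP genes (-0.06) to 0.03 with the mean of all probes, and that of gibberellin genes (0.05) to -0.06 with that filter and -0.01 with the mean of all probes. That of the seed genes ranged from 0.42 to 3.70. The heat shock median of 0.89 went to 0.27 with normexp, 0.76 without control replicate 1, 1.27 without control replicate 2, 1.28 without control replicate 3 and 1.22 with slide as a random block. The phosphatase median of 0.47 went to 0.75 without control replicate 1 and 0.99 without control replicate 3, the CBF and DREB median of -0.23 to -0.53 with 75th percentile scaling, and the iron median of -0.55 to -0.33 with normexp; the causes were not tested. Signal over background limits genes under an intensity of about 19 to 47 on the control arrays.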

Other observations

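Flowering genes were examined after their values were seen, because FT was among the largest falls. Of 20 genes of flowering time and floral identity, 5 were called higher on sorbitol 250 mM and 13 lower, where 36.2% and 30.5% of all genes were, 7 of the latter at least 2-fold, with a median of -0.68 against 0.04 over all genes tested. Besides FT, the floral identity gene LFY and the activators AGL24 and SPL3 were lower, with log2 fold changes of -1.85, -1.44 and -1.75. The floral identity gene AP1 went from 102, 121 and 108 to 7.14, 7.84 and 11.6, where it was dim, at least 5.6-fold lower. TSF, a relative of FT, had 79.6, 98.5 and 95.4 against 28, 20.6 and 10.4, with 1 sorbitol array well above background. The repressor TEM1 was also lower (-1.77), from 23700, 24100 and 23700, and the repressor FLC was slightly higher (0.44).

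Pathogenesis and camalexin genes were likewise chosen after their values were seen. Of 8 genes, 7 were called higher and 1 lower, where 36.2% and 30.5% of all genes were. The glucanase BGL2 (also known as PR2) rose from 335, 341 and 325 by 3.99 on the log2 scale, PR5 by 2.47, and CYP71A13, an enzyme of camalexin synthesis, by 3.52, while PAD4 fell by 0.86. For ABA4, a gene of ABA synthesis, sorbitol 250 mM replicate 1 had 77.4 where replicates 2 and 3 had 6120 and 6070, and it was not called.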
